A study of Homo sapiens with 6 samples.

Results

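The FGF receptors and the feedback genes of the MAPK pathway are a set of 10 genes, chosen by name: the receptors FGFR1, FGFR2, FGFR3 and FGFR4, the Sprouty genes SPRY1, SPRY2 and SPRY4, the ERK phosphatase DUSP6, and the transcription factors ETV4 and ETV5. All 10 were listed among the 15897 genes of the deposited expression table, and all 10 passed the filter on low values that left 14068 genes for testing. RNA-seq was performed on cells labelled H1650, the name of an established human lung adenocarcinoma cell line with a mutant EGFR. Of the libraries, 3 were labelled control, whose genotype is given as wild type, and 3 were labelled shSETD2. SETD2 is the methyltransferase that places H3K36me3, and its silencing used lentiviral short hairpin RNAs in stable lines. The labels do not say which of the 3 hairpin constructs a library carried, whether the control cells carried a vector, or whether the libraries of a group came from separate cultures, so that p-values measure the spread between these libraries, which may be technical.

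Fibroblast growth factors bind FGF receptors together with heparan sulfate, and the receptor tyrosine kinases then signal through the adaptor FRS2 and through RAS, RAF and MEK to the kinase ERK. Active ERK induces its own brakes and effectors. Sprouty proteins act between receptor and RAF, DUSP6 removes the activating phosphates from ERK in the cytoplasm, and ETV4 and ETV5 are ETS transcription factors of the PEA3 group. Transcripts of SPRY4, DUSP6, ETV4 and ETV5 are therefore commonly used as readouts of ERK activity, while the receptors themselves are often set by cell type.

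Of the 10 genes, 5 were higher and 5 were lower in shSETD2 than in control libraries (adjusted p under 0.05, limma), where 26.8% of all genes tested were called higher, 51.8% lower and 78.6% in either direction. The receptors and the transcripts used as readouts of ERK went opposite ways, with Sprouty genes in both sets. All 4 receptors and SPRY1 were lower, FGFR4 not with median ratio scaling, and SPRY2, SPRY4, DUSP6, ETV4 and ETV5 were higher. For each gene every library of one group lay beyond every library of the other, as was so for 80.9% of all genes tested (27.9% higher and 53% lower). With 3 libraries against 3, the smallest p of an exact permutation test is 0.1, and the adjusted p-values therefore come from the model fitted across all genes. Levels are FPKM, fragments scaled by transcript length and by library size, with the libraries of a group always in the order 1, 2 and 3. Log2 differences are shSETD2 minus control and were taken on log2(FPKM + 1), where the change of a gene with little signal comes out too small. Over all genes tested the median log2 difference was -0.29 without rescaling, -0.10 with quantile normalization and -0.01 with median ratio scaling, and of all genes called, 34.1%, 43.7% and 49.6% were higher. In bulk RNA, fewer cells of one kind and less RNA per cell cannot be told apart.

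The number of fragments behind a value is unknown, since FPKM alone does not give it, and precision is read from the spread among 3 libraries. SETD2 was at 18.0, 10.2 and 17.6 FPKM across the control libraries, against 8.97, 8.09 and 12.2 across the shSETD2 libraries. The groups overlapped, with a log2 difference of -0.58 (standard error 0.24) and adjusted p = 0.064 in limma, and libraries are called control or shSETD2 here as labelled. Without control replicate 2 the difference was -0.83 and the adjusted p of limma 6.48e-03, and without shSETD2 replicate 3 they were -0.73 and 0.042. Leaving out any other library gave differences of -0.53 to -0.45 with adjusted p-values of 0.149 to 0.179 in limma, and median ratio scaling gave -0.25 with adjusted p = 0.377. Over the 15897 genes, as a description, Pearson's r of log2(FPKM + 1) between libraries was 0.985 to 0.991 within a group and 0.756 to 0.761 between groups.

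Markers of tissue also differed between the groups. Of 13 lung epithelium markers, 3 were listed (NKX2-1, ABCA3 and LAMP3), none of them a surfactant gene. Their summed level, most of it ABCA3, was 15.5 to 15.9 FPKM in the control and 9.36 to 9.77 in the shSETD2 libraries. Of the 3 tested 1 was higher and 2 lower. LAMP3 was the higher one, at 0.449 to 0.657 FPKM in the control and 1.18 to 1.27 in the shSETD2 libraries. NKX2-1, the lung lineage transcription factor, was between 1.44 and 1.80 FPKM in the control libraries and listed at 0 in each shSETD2 library. Of 13 general epithelium markers 10 were listed, with sums of 16.7 to 17.9 against 406.1 to 458.9 FPKM. Of the 6 tested 4 were higher, and the 2 lower were CDH1 and ESRP2. The keratins KRT18, KRT8 and KRT7 made up most of these sums, though KRT7 was at most 0.0375 FPKM in the control libraries. CDH1 was at 1.52, 1.43 and 0.860 FPKM across the control libraries and at most 0.014 FPKM in the shSETD2 libraries. Of 12 mesenchymal markers 9 were listed, with sums of 118.4 to 133.0 against 170.0 to 180.3 FPKM, and of the 8 tested 3 were higher and 4 lower. VIM, at 60.6 to 76.7 against 128.8 to 137.5 FPKM, made up most of these sums, and CDH2 was also higher, while SNAI2 fell from 14.1 or more to at most 0.0321 FPKM and TWIST1 was listed at 0 in the shSETD2 libraries. Of 10 kidney lineage markers 9 were listed, with sums of 19.8 to 22.3 against 45.5 to 55.5 FPKM, and of the 8 tested 4 were higher and 4 lower. PAX8 rose from at most 0.0368 to between 28.1 and 35.1 FPKM and PAX2 from at most 0.911 to between 9.49 and 10.5, while SIX2, EYA1, SALL1 and EMX2 were at 0 in every shSETD2 library. Of 10 blood and endothelial markers, only CD14 was listed, at no more than 0.621 FPKM. The part of these differences in the results below was not tested. Whether the cells of either group are the labelled line was not tested either, and a rise or fall below compares libraries as labelled.

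The receptors were lower as a group, and the balance among them shifted. FGFR3 (ENSG00000068078.17_3, chromosome 4, plus strand, 1795034 to 1810599 in GRCh37, the build of all gene positions here) was at 9.04, 8.84 and 9.19 FPKM across the control libraries, against 0.318, 0.398 and 0.343 across the shSETD2 libraries. It was the highest of the 4 receptors in every control library and the lowest of the 3 that had any signal in the shSETD2 libraries. Its mean fell from 9.02 ± 0.173 to 0.353 ± 0.0406 FPKM (SD, n = 3), a ratio of control to shSETD2 of 25.6, and the log2 difference was -2.89 (standard error 0.053, adjusted p = 6.52e-08 from limma). FGFR3 is known for activating mutations in skeletal dysplasia and urothelial cancer.

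FGFR2 (ENSG00000066468.22_3, minus strand of chromosome 10, 123237848 to 123357972), the receptor that answers mesenchymal ligands in lung epithelium, was at 3.52, 4.15 and 3.74 FPKM across the control libraries. It was listed at 0 in all 3 shSETD2 libraries, so no fold change is given, and its adjusted p was 4.08e-07 in limma. Of the 15897 listed genes, 848 were at 0 in all 3 shSETD2 libraries and 400 in all 3 control libraries. Both counts include 122 genes at 0 in all 6 libraries. Of the 848, 87 had a mean of 5 FPKM or more in the control libraries. The splicing factors ESRP1 and ESRP2 favour the epithelial form of FGFR2. ESRP2 fell from 1.48, 2.28 and 2.04 FPKM across the control libraries to at most 0.029 in the shSETD2 libraries. RBFOX2, another regulator of this exon, fell less, from 22.5, 22.8 and 21.6 to 16.8, 17.0 and 16.4 FPKM, a log2 difference of -0.39. ESRP1, too low to be tested, was at most 0.044 FPKM in the control and 0.639 to 0.962 in the shSETD2 libraries. The exon forms of FGFR2 were not analysed here.

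FGFR1 (ENSG00000077782.19_3, minus strand of chromosome 8, 38268656 to 38326352), a receptor widely expressed in mesenchymal cells, was at 4.58, 4.22 and 4.53 FPKM across the control libraries, against 2.15, 1.84 and 1.91 across the shSETD2 libraries. The ratio of its means was 2.26 in favour of control, with a log2 difference of -0.88 (standard error 0.064, adjusted p = 2.46e-05 from limma), or -0.59 relative to the median of all genes tested. FGFR4 (ENSG00000160867.14_3, plus strand of chromosome 5, 176513887 to 176525145), the main receptor of the bile acid hormone FGF19 in liver, had the smallest difference of the 10 genes. It was at 5.39, 5.79 and 5.20 FPKM across the control libraries, against 4.09, 3.70 and 4.18 across the shSETD2 libraries, with a log2 difference of -0.37 (95% interval -0.53 to -0.22, adjusted p = 1.71e-03 from limma). Relative to the median of all genes tested this was -0.08, and with median ratio scaling its difference of -0.08 no longer passed the threshold (adjusted p = 0.301 from limma). FGFR4 was still called lower with upper quartile scaling (-0.33, adjusted p = 2.97e-03 from limma) and with quantile normalization (-0.19, adjusted p = 0.034 from limma). The call of FGFR4 thus depended on which scaling was used, while FGFR1, FGFR2 and FGFR3 were called lower under each scaling tried.

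**Figure D1:**
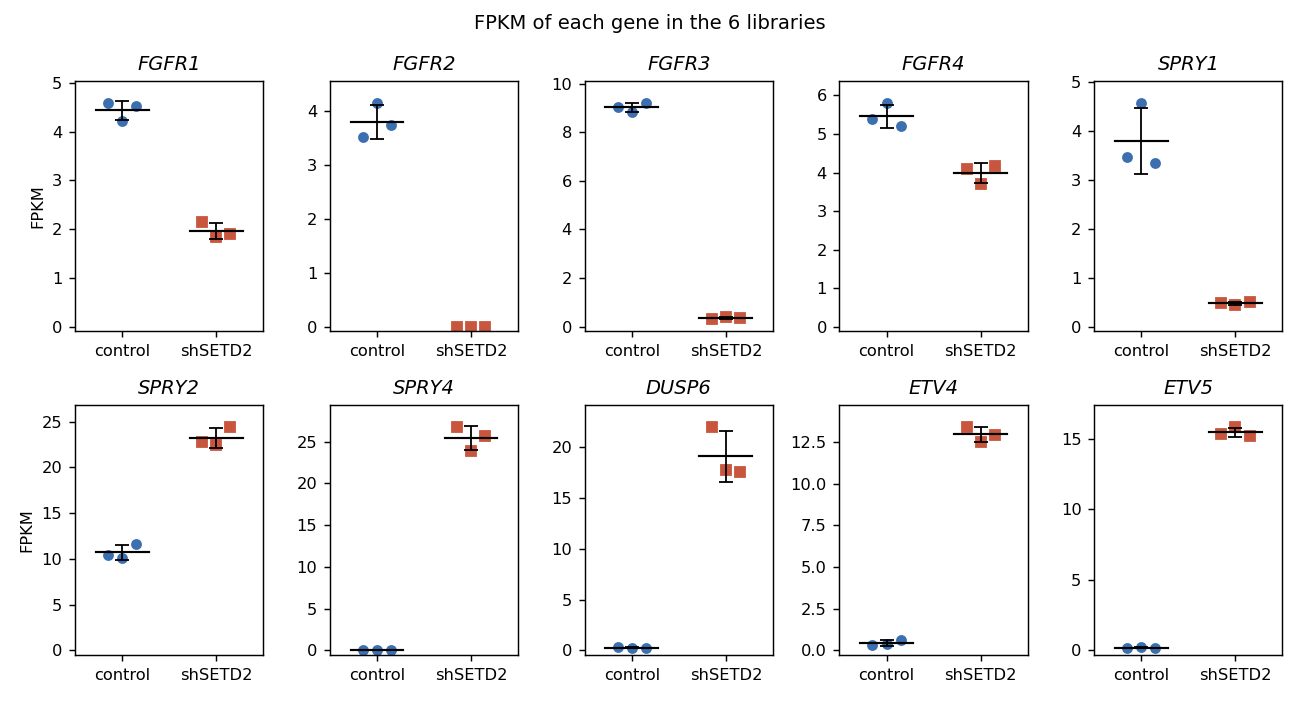
FPKM (vertical axis, linear, a separate scale for each gene) of the 10 genes in the 3 control libraries (circles) and the 3 shSETD2 libraries (squares), with the mean and SD of each group as a horizontal line and error bar, left out where all 3 libraries are at 0. FGFR3 falls from about 9.02 to 0.353 and SPRY4 rises from 0.0962 to 25.4, whereas the groups of FGFR4 lie closest together.

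Shares within a family do not change with the scaling of a library. The summed FPKM of the 4 receptors was 22.7 ± 0.246 in the control and 6.31 ± 0.328 in the shSETD2 libraries (SD, n = 3). FGFR3 held 38.4% to 40.6% of this sum in the control libraries and 4.85% to 6.69% in the shSETD2 libraries. FGFR4 held 23.0% to 25.2% and then 62.4% to 65.0%, and FGFR1 held 18.3% to 20.3% and then 29.6% to 32.8%. The leading receptor was thus FGFR3 in every control library and FGFR4 in every shSETD2 library. For each of the 8 shares tested in the FGFR, SPRY and ETV families the groups did not overlap, and the two-sided exact permutation test gave p = 0.1, the smallest that it can give here, and 0.1 after Benjamini-Hochberg adjustment over the 8.

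Of the 10 genes, 7 had a promoter window in RefSeq (FGFR2, FGFR3, FGFR4, SPRY1, SPRY2, SPRY4 and DUSP6), read in GRCh38.p14 as the 250 bases before the 5′-most start of the gene, while FGFR1, ETV4 and ETV5 had none. The 200 bases just before the start, 5′ to 3′, are shown for the receptors that fell most and for a feedback gene that rose, since they differ in base composition, with each GC box (GGGCGG on either strand, touching or overlapping copies merged) in capitals.
FGFR3, chr4:1793093-1793292, plus strand: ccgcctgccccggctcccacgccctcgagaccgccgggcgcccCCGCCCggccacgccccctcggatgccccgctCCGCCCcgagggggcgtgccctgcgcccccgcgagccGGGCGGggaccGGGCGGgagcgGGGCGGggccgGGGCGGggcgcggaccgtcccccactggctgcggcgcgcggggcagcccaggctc
FGFR2, chr10:121598445-121598644, minus strand: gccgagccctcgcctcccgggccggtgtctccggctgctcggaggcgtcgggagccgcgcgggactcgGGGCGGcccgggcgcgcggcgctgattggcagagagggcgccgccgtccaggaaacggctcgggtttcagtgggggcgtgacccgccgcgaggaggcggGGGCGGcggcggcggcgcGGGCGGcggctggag
DUSP6, chr12:89352502-89352701, minus strand: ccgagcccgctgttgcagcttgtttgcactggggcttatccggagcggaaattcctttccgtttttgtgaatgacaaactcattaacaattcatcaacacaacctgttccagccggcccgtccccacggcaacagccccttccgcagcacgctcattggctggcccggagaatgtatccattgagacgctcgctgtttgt
The 250 bases of FGFR3 were 86.8% G or C and held 8 GC boxes, a number reached by 0.608% of the 27305 windows in the table. Those of FGFR2 were 78.4% G or C with 3 boxes, and those of FGFR4 79.6% with 7. Among the genes with higher transcripts, the windows of SPRY2, SPRY4 and DUSP6 were 70.4%, 65.6% and 57.2% G or C with 2, 1 and 0 boxes. That of SPRY1, which was lower, was 45.6% G or C with no box, so that base composition did not follow direction in all 7. Of the 27305 windows the median was 57.6% G or C, and 42.2% held at least 1 GC box. Motifs were searched by exact letters only. Shorter forms were not searched, such as GGAA, the core of ETS sites, which the FGFR2 and DUSP6 bases shown do hold. None of the 7 windows held the letters of an ETS motif (CGGAAGT), an AP-1 motif (TGACTCA), a CRE core (TGACGT), an E-box (CACGTG) or a TATA box (TATAAA) on either strand. In the table these were held by 6.02%, 4.15%, 7.42%, 6.46% and 11.2% of windows, and a lack of these letters in the window says nothing of the factors.

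The Sprouty genes, inhibitors of signaling between receptor and RAF, did not move together. SPRY4 (ENSG00000187678.8_3, minus strand of chromosome 5, 141689992 to 141706020) was at 0.110, 0.0923 and 0.0862 FPKM across the control libraries, against 26.7, 23.9 and 25.6 across the shSETD2 libraries. Within a library it moved from percentiles between 5.83 and 6.34 of all listed genes to percentiles between 91.2 and 92.2. The log2 difference was 4.59 (standard error 0.058, adjusted p = 2.29e-08 from limma), the largest rise of the 10 genes. Because the control values were close to 0, its size depended on the pseudocount, being 7.02 with 0.1 and 7.91 with 0.01 in place of 1.

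SPRY2 (ENSG00000136158.11_3, minus strand of chromosome 13, 80910111 to 80915086) was already at 10.4, 10.1 and 11.7 FPKM across the control libraries, the highest of the 10 genes there, and was at 22.8, 22.4 and 24.4 across the shSETD2 libraries. Its level was 2.17 times higher, with a log2 difference of 1.05 (standard error 0.066, adjusted p = 1.22e-05 from limma). SPRY1 (ENSG00000164056.10_2, plus strand of chromosome 4, 124317950 to 124324915) went the other way. It was at 3.47, 4.56 and 3.34 FPKM across the control libraries, against 0.481, 0.439 and 0.511 across the shSETD2 libraries, with a log2 difference of -1.69 (standard error 0.10, adjusted p = 1.07e-05 from limma). SPRY3, on the X chromosome, was at 0.554 to 0.739 FPKM in the control and 0.490 to 0.549 in the shSETD2 libraries, and did not pass the threshold (adjusted p = 0.099 from limma).

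The summed FPKM of SPRY1, SPRY2 and SPRY4 rose from 14.6 ± 0.581 to 49.1 ± 2.01 (SD, n = 3). SPRY4 held 0.571% to 0.788% of it in the control libraries and 50.7% to 53.5% in the shSETD2 libraries, while SPRY1 held 22.1% to 31.0% and then 0.939% to 1.01%. SPRY2 was the leading Sprouty transcript in every control library and SPRY4 in every shSETD2 library, where the values of SPRY4 and SPRY2 overlapped between libraries. SPRY4-IT1, a long non-coding RNA listed inside SPRY4 on the same strand from 141697185 to 141697887, was at 0.154, 0 and 0 FPKM across the control libraries, against 9.60, 9.32 and 9.79 across the shSETD2 libraries, and its reads cannot be told apart from unspliced RNA of SPRY4.

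DUSP6 (ENSG00000139318.7_2, minus strand of chromosome 12, 89741009 to 89747048), the cytoplasmic phosphatase of ERK, was at 0.314, 0.191 and 0.271 FPKM across the control libraries, against 21.9, 17.7 and 17.5 across the shSETD2 libraries. The shSETD2 libraries differed more among themselves for DUSP6 than for any of the other genes with higher transcripts, with a coefficient of variation of 13.2%, but the lowest lay far above the control libraries. The log2 difference was 3.99 (standard error 0.098, adjusted p = 2.01e-07 from limma). With a pseudocount of 0.01 it was 6.17.

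DUSP6, DUSP7 and DUSP9 form the group of cytoplasmic phosphatases with a preference for ERK, and they were compared after their values had been seen. DUSP9 fell from 7.74, 7.51 and 8.35 FPKM across the control libraries to 0.336, 0.240 and 0.562 across the shSETD2 libraries (log2 difference -2.69, standard error 0.098, adjusted p = 1.02e-06 from limma). DUSP7 rose from 7.75, 7.74 and 7.44 to 11.7, 10.7 and 11.2 FPKM. Of the sum of the 3 genes, DUSP9 held 48.6% to 52.0% in the control and 0.839% to 1.92% in the shSETD2 libraries. DUSP6 held 1.24% to 1.99% and then 59.8% to 64.6%. DUSP7 held 46.3% to 50.1%, close to DUSP9, in the control libraries and 34.45% to 38.3% in the shSETD2 libraries. Of DUSP6 and DUSP9 alone, DUSP9 was the larger by far in the control libraries, and DUSP6 in the shSETD2 libraries.

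**Figure D2:**
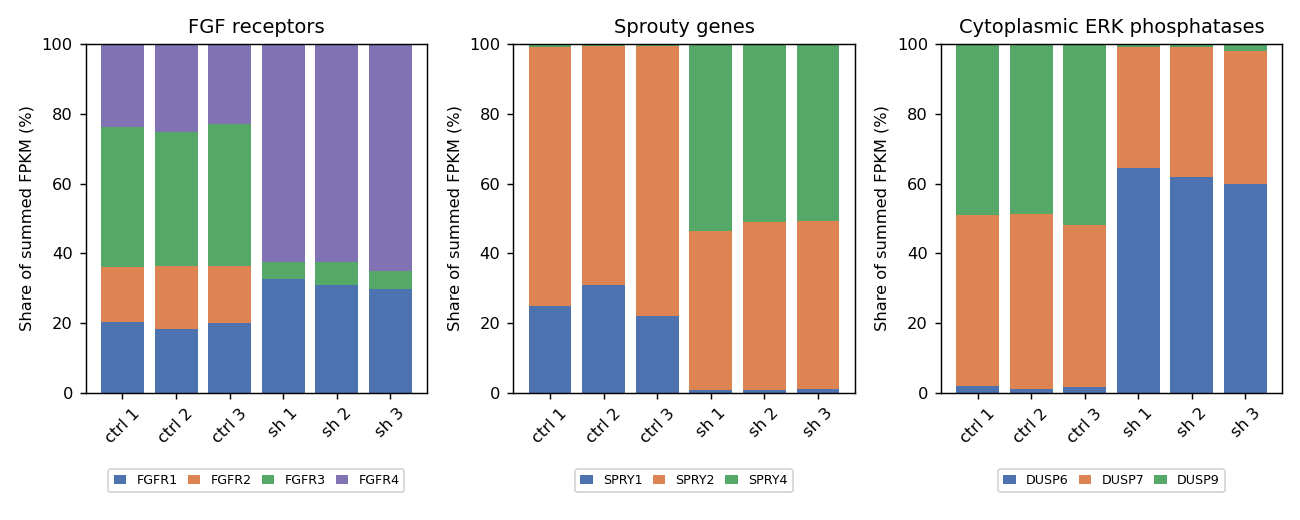
Share of the summed FPKM (vertical axis, percent) held by each gene of a family in each of the 3 control (ctrl) and 3 shSETD2 (sh) libraries, as stacked bars for the FGF receptors, the Sprouty genes and the cytoplasmic ERK phosphatases. The largest share passes from FGFR3 to FGFR4 and from SPRY2 to SPRY4. DUSP9 gives way to DUSP6, while DUSP7 holds a large share in both groups, and libraries of the same label are alike.

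The PEA3 group transcription factors rose together. ETV5 (ENSG00000244405.7_3, minus strand of chromosome 3, 185764097 to 185828107) was at 0.191, 0.213 and 0.206 FPKM across the control libraries, against 15.3, 15.8 and 15.2 across the shSETD2 libraries. Its log2 difference was 3.77 (standard error 0.048, adjusted p = 2.36e-08 from limma), with the smallest spread in the shSETD2 libraries among the 9 genes that had signal there, a coefficient of variation of 2.08%. ETV4 (ENSG00000175832.12_3, minus strand of chromosome 17, 41605212 to 41656988) was at 0.339, 0.391 and 0.641 FPKM across the control libraries, against 13.4, 12.5 and 12.9 across the shSETD2 libraries, and its log2 difference was 3.26 (standard error 0.088, adjusted p = 2.95e-07 from limma). Control library 3 was the highest for ETV4, and the coefficient of variation in the control libraries was 35.4%. The third gene of the group, ETV1, rose from 0.156 to 0.168 FPKM in the control libraries to 3.26 to 4.18 in the shSETD2 libraries. ETV4 led ETV5 in every control library, with 64.0% to 75.7% of their sum, and ETV5 led in every shSETD2 library, where ETV4 held 44.2% to 46.6%. SPRY4, DUSP6, ETV4 and ETV5 each had a log2 difference of 3 or more, a size chosen after the values were seen, against 2.02% of all genes tested that were called higher with such a difference.

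**Figure D3:**
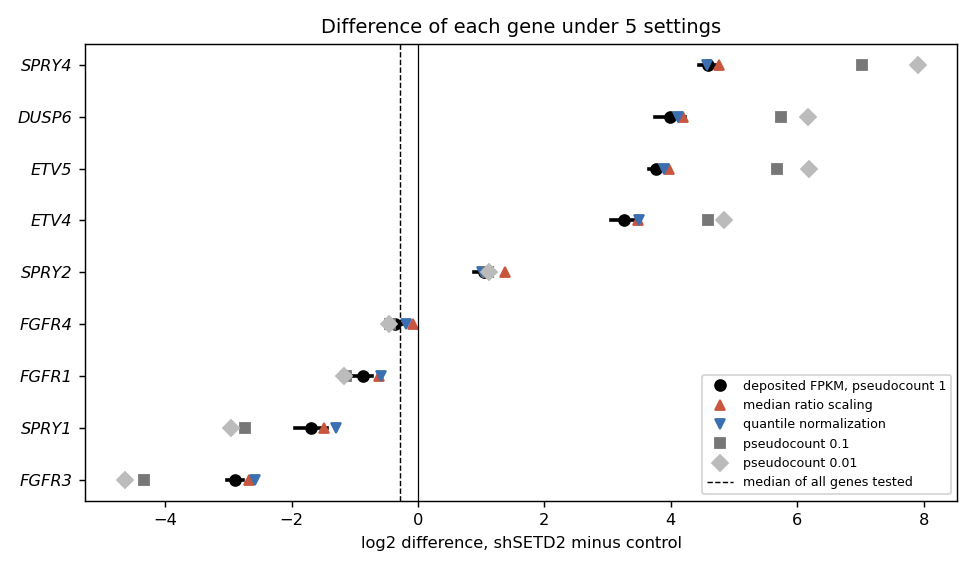
Log2 difference between shSETD2 and control libraries (horizontal axis) for 9 of the genes, with FGFR2 left out because it was listed at 0 in one group, under 5 settings. Bars are 95% intervals of limma for the FPKM as deposited, and the dashed line is the median of all genes tested in that setting, -0.29. The median differs in the other settings and was -0.01 with median ratio scaling. The order of the genes is largely kept, the points of FGFR4 reach -0.08 with median ratio scaling, and smaller pseudocounts move SPRY4 to 7.91.

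The order of the levels of the 10 genes differed between the groups, though SPRY2 was near the top in both and FGFR4 stayed above FGFR1. In the control libraries it ran, from high to low mean FPKM, SPRY2, FGFR3, FGFR4, FGFR1, FGFR2, SPRY1, ETV4, DUSP6, ETV5 and SPRY4. Of the neighbours in this order, FGFR2 and SPRY1 overlapped, with means of 3.80 and 3.79 FPKM, as did DUSP6 and ETV5, with means of 0.259 and 0.203. Each of the other neighbours was separated in all 3 libraries. In the shSETD2 libraries the order was SPRY4, SPRY2, DUSP6, ETV5, ETV4, FGFR4, FGFR1, SPRY1, FGFR3 and FGFR2, and of the neighbours only SPRY4 and SPRY2 overlapped, with means of 25.4 and 23.2 FPKM. In the control libraries every receptor lay above SPRY4, DUSP6, ETV4 and ETV5, and in the shSETD2 libraries every receptor lay below them. Among all listed genes of a library, FGFR3 moved from percentiles between 71.9 and 73.0 to percentiles between 17.95 and 19.8. DUSP6 moved up from between 7.37 and 9.09 to between 87.2 and 90.2, ETV4 from between 9.43 and 14.98 to between 81.4 and 82.8, and ETV5 from between 7.46 and 7.73 to between 84.9 and 85.4. FGFR4 kept nearly the same rank, between 56.5 and 59.6 in the control and between 52.1 and 54.9 in the shSETD2 libraries, though the groups did not overlap.

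Other genes of the pathway were described from lists by role, which held 100 genes, of which 79 were listed and 75 tested. Of these, limma called 38 higher and 28 lower in shSETD2, and 9 passed in neither direction. Of all genes tested 26.8% were called higher and 51.8% lower. These shares also stand beside the counts of each list below, where no other scaling is named. Without genes listed at 0 in a whole group, their median log2 difference was 0.39, beside -0.27 for all genes tested.

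Most ligands were not in the table. Of 22 FGF genes 5 were listed and 4 tested, with 2 higher and 1 lower, and 17 were not listed. FGF9, a ligand of FGFR3 among others, was at 1.93, 1.501 and 1.58 FPKM across the control libraries and listed at 0 in every shSETD2 library. FGF2, the prototype of the family, was at 4.56, 4.12 and 4.01 FPKM across the control libraries, against 4.81, 6.80 and 6.003 across the shSETD2 libraries. Its log2 difference of 0.39 (standard error 0.11, adjusted p = 0.020 from limma) did not pass the threshold without control replicate 2 (0.37, adjusted p = 0.059), control replicate 3 (0.36, adjusted p = 0.062) or shSETD2 replicate 3 (0.37, adjusted p = 0.058). It was larger with quantile normalization (0.58, adjusted p = 3.29e-03 in limma) and with median ratio scaling (0.68, adjusted p = 1.71e-03 in limma). FGF5 rose from 0.370, 0.518 and 0.400 to 1.305, 1.37 and 1.18 FPKM.

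Co-receptors, which are heparan sulfate proteoglycans and other membrane proteins that bind the receptors or their ligands, went both ways. Of 18 genes 13 were tested, with 3 higher and 10 lower, where 51.8% of all genes tested were lower. Their median log2 difference was -0.74 without those listed at 0 in a whole group, beside -0.27 for all genes, and KL and KLB, the co-receptors of the endocrine ligands, were not listed. The glypican GPC3 was at 10.9, 14.6 and 12.2 FPKM across the control libraries, and the glypican GPC6 at 10.9, 11.4 and 11.6, and both were listed at 0 in every shSETD2 library. The syndecan SDC4 went the other way, from 6.64, 7.54 and 6.39 FPKM across the control libraries to 211.8, 212.1 and 212.5 across the shSETD2 libraries (log2 difference 4.76, standard error 0.059, adjusted p = 2.19e-08 from limma). The summed level of the listed co-receptors was 83.2 to 94.9 FPKM in the control and 252.1 to 269.6 in the shSETD2 libraries, most of it SDC4 in the latter.

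The adaptors that carry the signal from the receptors to RAS also went both ways. Of 13 adaptor genes 5 were higher, 6 lower and 2 neither (6 higher and 4 lower with median ratio scaling, 3 higher and 6 lower with quantile normalization), with a median log2 difference of -0.34. FRS2, the adaptor of the FGF receptors, was at 2.86, 6.25 and 2.99 FPKM across the control libraries, against 5.399, 5.63 and 5.18 across the shSETD2 libraries, and did not pass the threshold (adjusted p = 0.16 from limma). SHC1, an adaptor of many receptor tyrosine kinases, stood apart, rising from 7.26, 7.27 and 6.73 to 155.4, 147.3 and 155.8 FPKM. CRKL fell from 46.3, 47.7 and 43.2 to 22.7, 23.0 and 12.2 FPKM, and GAB1 from 3.49, 3.37 and 3.54 to 1.31, 1.73 and 1.59.

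Of 13 genes in the list of the RAS to ERK cascade, 5 were higher, 4 lower and 4 neither, with a median log2 difference of 0.07. The list also holds RASA1 and NF1, which switch RAS off. Both were among the 5 higher, with log2 differences of 0.22 and 0.30. After median ratio scaling this became 10 higher and 1 lower, so that the direction of this group depended on the scaling. HRAS rose from 8.47, 6.49 and 8.15 to 18.0, 17.0 and 24.0 FPKM, and MAPK3, which encodes an ERK kinase, fell from 14.5, 16.3 and 16.3 to 9.36, 8.86 and 9.04 FPKM, both also with median ratio scaling. MAP2K1, which encodes MEK, was at 18.0, 17.2 and 18.4 FPKM across the control libraries, against 12.9, 13.1 and 12.1 across the shSETD2 libraries, a log2 difference of -0.46 that was -0.13 with an adjusted p of 0.052 in limma after median ratio scaling. These are transcript levels, and the phosphorylation of ERK was not analysed here.

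Of 15 genes tested in the list of other feedback inhibitors, 8 were higher and 5 lower, with a median log2 difference of 0.50. These counts include DUSP8, DUSP10 and DUSP16, phosphatases that act mainly on the kinases JNK and p38 rather than on ERK. DUSP10 was higher (log2 difference 2.22), and DUSP8 and DUSP16 were lower (-0.47 and -0.37). DUSP5, the nuclear phosphatase of ERK, rose from 3.28, 3.97 and 3.72 FPKM across the control libraries to 200.1, 188.8 and 203.4 across the shSETD2 libraries, a log2 difference of 5.41 (standard error 0.065, adjusted p = 1.90e-08 from limma). ERRFI1, an inhibitor of the EGF receptor, rose from 7.32, 6.52 and 7.52 to 122.9, 122.9 and 131.8 FPKM. Among the Sprouty-related genes, SPRED1 and SPRED2 were higher, with log2 differences of 1.09 and 1.74. IL17RD, an inhibitor of FGF receptor signaling, fell from 3.72, 3.69 and 3.84 to 1.17, 1.37 and 1.31 FPKM. Feedback inhibitors did not all move one way, as in the Sprouty and phosphatase families.

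Of 17 other transcripts known to be induced by ERK signaling, 15 were higher and 2 (EPHA4 and EGR3) lower, with a median log2 difference of 2.05 against -0.27 for all genes tested, and the count higher was also 15 with median ratio scaling and with quantile normalization. IER3, an immediate early gene, rose from 6.95, 5.85 and 4.57 FPKM across the control libraries to 745.3, 714.1 and 757.9 across the shSETD2 libraries. LIF, a cytokine of the IL6 family, rose from 0.495, 0.523 and 0.438 to 160.7, 147.1 and 158.8 FPKM, and FOSL1, an AP-1 subunit, from 1.07, 1.21 and 1.49 to 98.3, 95.04 and 113.0. These transcripts also answer other signals, and the list was chosen with earlier results of these libraries known.

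**Figure D4:**
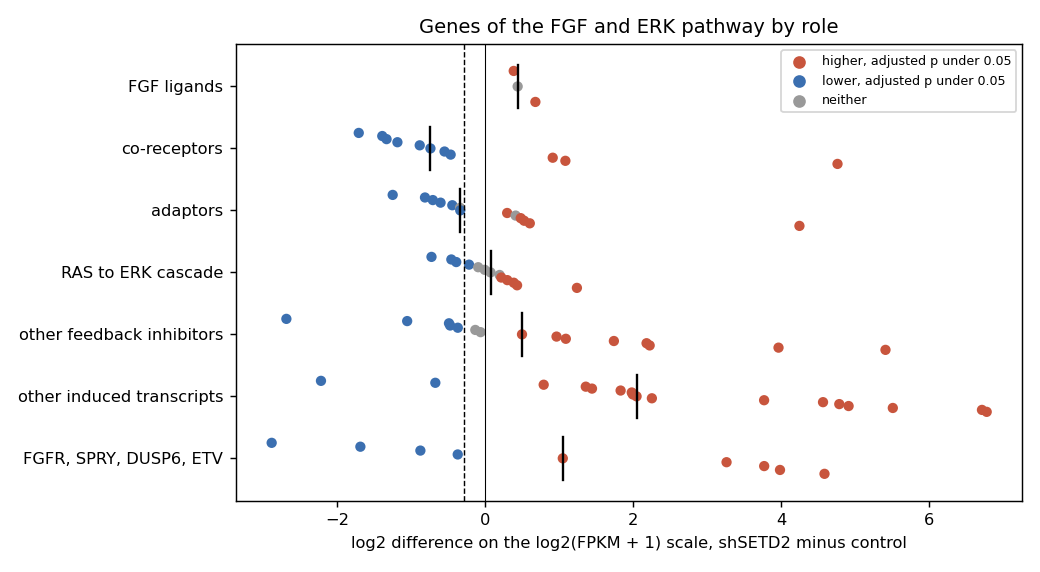
Log2 difference on the log2(FPKM + 1) scale (horizontal axis) of each gene tested in 6 lists of the FGF and ERK pathway and of the receptor, Sprouty, DUSP6 and ETV genes, without genes listed at 0 in a whole group. Points are genes, colored by the call of limma, short vertical lines are medians of a list, and the dashed line is the median of all genes tested, -0.29. Among the 6 lists, that of the induced transcripts lies furthest to the right with a median of 2.05, and that of the co-receptors furthest to the left with -0.74.

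The genes whose level and change were most like those of the receptor, feedback gene and ETV gene with the largest difference were found by the Euclidean distance of log2(FPKM + 1) over the 6 libraries. For FGFR3 these were SCARF2 (distance 0.199), MOXD1 (0.370) and FUZ (0.390). SPRY4 was closest to LUCAT1 (0.252), AC140479.5 (0.270) and PSMB8 (0.367), and ETV5 to MGLL (0.265), NNMT (0.303) and WNT7B (0.335). These distances rest on a pattern with 2 levels, one for each group.

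The surroundings of the genes were compared as well. Within 500 kb of the 10 genes 97 other genes were tested, of which 20.6% were higher and 55 (56.7%) were lower in the shSETD2 libraries, beside 26.8% and 51.8% of all genes tested. Near SPRY2 none was tested. FGF2 lies within this distance of SPRY1 on chromosome 4, and the former was higher and the latter lower. ETV4 is overlapped on the opposite strand by DHX8, whose log2 difference was -0.62. ETV5 is overlapped on the same strand by DGKG and on the opposite strand by ETV5-AS1, and SPRY4 on the opposite strand by SPRY4-AS1, none of which was listed. FGFR1 and DUSP6 are each overlapped by a non-coding RNA of the opposite strand that was not listed either. The library kit keeps the strand of the RNA, but whether the quantification used it is not given in the sources used here.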

How the data were processed

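Total RNA of 6 libraries, 3 control and 3 shSETD2, was prepared with a stranded kit. The FPKM values per gene and library are the authors' own, made by Hisat2 alignment to hg19 and Ballgown. Versions, the annotation release and the filter on listed genes are not given in the sources used here. A further deposited table holds the authors' own fold changes, p-values and q-values beside FPKM, and was not used. Gene positions are those of the deposited table, overlaps come from GENCODE for GRCh37, and promoters from RefSeq for GRCh38.p14.

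A gene was tested where its FPKM averaged 0.5 or more across all 6 libraries. The model was that of limma 3.58.1 (R 4.3.3) on log2(FPKM + 1), a linear fit per gene with variances moderated toward a trend on mean level, with Benjamini-Hochberg adjustment over all 14068 genes and a threshold of 0.05. The fit was tested on simulated data. Shares were compared with exact permutation tests (scipy 1.17.1). The genes and lists were chosen with earlier results of these data known. From each list the 3 genes called with the largest difference were named, with those listed at 0 throughout one group and at an FPKM of 1 or more in the other. Marker genes were named by level, up to 3 a list, and where listed at 0. SPRY3, SPRED1, SPRED2, IL17RD, DUSP7, ETV1, FRS2, ESRP1, EPHA4, EGR3 and the marker CDH1 were named outside these rules, after their values were seen. So were RASA1, NF1, DUSP8, DUSP10 and DUSP16. The shares of DUSP6, DUSP7 and DUSP9 and the percentiles were added after seeing the data. Alternatives were pseudocounts of 0.1 and 0.01, no filter or a mean FPKM of at least 5, 3 other scalings, no trend, an ordinary linear model, a replicate block and each library left out in turn. Counts were not analysed here, and no counting error is given. Some marker genes are not reported here and were left out of their list.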

Additional observations from a re-analysis of the deposited data

How the results depend on the processing

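Each of the 10 genes kept its direction and its call under every alternative that could be fitted, except FGFR4, whose log2 difference was -0.080 with an adjusted p of 0.301 in limma after median ratio scaling. With a mean FPKM of at least 5 as the filter, FGFR1, FGFR2, FGFR3, FGFR4 and SPRY1 were not tested, so that 0 of the 10 genes were called lower, 14 pathway genes were lower, and of all genes 2401 were higher and 3246 lower, since fewer genes were tested. The replicate numbers did not pair the libraries, since deviations from the group means correlated between same-numbered libraries at -0.024, 0.018 and -0.008, and not every library correlated best with its own number. With the replicate block all 10 genes were still called, the weakest being FGFR4 (log2 difference -0.37, adjusted p = 0.011 in limma), and SETD2 was called (-0.58, adjusted p = 0.016), while 3733 of all genes were higher. FGF2 did not pass with the ordinary linear model (0.39, adjusted p = 0.058), and the cause was not tested. With one library left out at a time, the log2 difference ran from -0.40 to -0.33 for FGFR4 and from 4.55 to 4.63 for SPRY4. Smaller pseudocounts raised the size of the change of the genes with low FPKM, to 4.85 for ETV4 and 6.18 for ETV5. The unknown depth limits the genes near 0, whose true level in the lower group cannot be bounded.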
